A study of Mus musculus with 3 samples.

Results

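Group 2 innate lymphoid cells (ILC2) of the mouse kidney were taken as all cells that carry the cluster name ILC2 in the deposited table of raw counts, 424 of 20266 immune cells. The cells came from untreated wild-type male C57BL/6J mice aged 10 weeks. Their kidneys were dissected into the cortex and the outer (OM) and inner medulla (IM), digested with enzymes and sorted for CD45, a surface protein of leukocytes. Droplet-based single-cell RNA sequencing was run at 3 facilities, Aachen, Bonn and Hamburg, and Aachen used an earlier version of the 10x chemistry than the other two. The cells of 1 compartment at 1 facility were treated as 1 library, which gave 9 libraries with facility as the replicate (n = 3). How many mice went into a library is not given in the sources used here, so p-values measure the spread between these libraries, and mice, chemistry and laboratory cannot be told apart between facilities. The comparison cells were 5236 T cells (clusters T_cell_1 to T_cell_4) and 1133 natural killer (NK) cells of the same libraries. A separate cluster named Malat+_T_cell was not counted among the T cells, here or in the shares below.

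ILC2 are tissue-resident lymphocytes without antigen receptors. They depend on the transcription factor GATA3, sense alarm signals of the epithelium such as IL-33 and IL-25 through dedicated receptors, and answer with type 2 cytokines (IL-5, IL-13), the growth factor amphiregulin and other mediators. T cells can make many of the same products but carry the CD3 and T cell receptor genes, while NK cells carry Ncr1 and a cytotoxic program.

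Promoters of 4 genes are shown to give the sequence context of the alarmin receptor, the cytokines and the growth factor described further on. Each is a RefSeq window from 250 bases before to 50 bases after a transcription start on GRCm38.p6, written 5′ to 3′ on the strand of the gene. Capitals mark GATAA or its reverse complement TTATC, core letters that GATA factors are known to bind. Il1rl1, the gene of the IL-33 receptor ST2, lies at chr1:40404864-40465418 and is shown at 2 annotated starts within it, window A (chr1:40429320-40429619, plus strand) with 2 matches and window B (chr1:40439379-40439678, plus strand) with 1. Il13 (chr11:53634653-53634952, minus strand) and Csf2, the gene of the cytokine GM-CSF (chr11:54249850-54250149, minus strand), have 1 match each. The window of Areg, the gene of amphiregulin (chr5:91139349-91139648, plus strand), has 0 matches.
Il1rl1 window A: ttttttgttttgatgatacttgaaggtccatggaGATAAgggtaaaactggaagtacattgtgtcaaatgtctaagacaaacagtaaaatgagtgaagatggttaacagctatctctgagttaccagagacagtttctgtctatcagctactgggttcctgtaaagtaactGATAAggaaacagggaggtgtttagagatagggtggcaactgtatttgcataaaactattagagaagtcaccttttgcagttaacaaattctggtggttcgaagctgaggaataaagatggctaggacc
Il1rl1 window B: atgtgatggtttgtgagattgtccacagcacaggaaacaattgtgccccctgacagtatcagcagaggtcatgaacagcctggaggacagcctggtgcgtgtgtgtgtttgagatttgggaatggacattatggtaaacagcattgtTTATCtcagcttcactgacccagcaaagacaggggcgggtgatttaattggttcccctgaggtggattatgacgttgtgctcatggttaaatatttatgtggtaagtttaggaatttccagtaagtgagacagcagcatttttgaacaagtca
Il13: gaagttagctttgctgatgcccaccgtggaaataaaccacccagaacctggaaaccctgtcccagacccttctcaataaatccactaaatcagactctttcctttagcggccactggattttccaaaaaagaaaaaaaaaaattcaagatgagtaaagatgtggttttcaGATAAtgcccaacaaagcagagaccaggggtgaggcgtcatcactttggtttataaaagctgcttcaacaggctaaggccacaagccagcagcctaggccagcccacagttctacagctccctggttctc
Csf2: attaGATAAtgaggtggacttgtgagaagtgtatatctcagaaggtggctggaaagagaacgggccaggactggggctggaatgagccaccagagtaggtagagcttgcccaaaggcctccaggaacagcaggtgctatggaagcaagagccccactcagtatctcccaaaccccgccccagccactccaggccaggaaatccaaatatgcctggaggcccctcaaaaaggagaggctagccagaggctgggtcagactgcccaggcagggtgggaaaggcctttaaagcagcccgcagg
Areg: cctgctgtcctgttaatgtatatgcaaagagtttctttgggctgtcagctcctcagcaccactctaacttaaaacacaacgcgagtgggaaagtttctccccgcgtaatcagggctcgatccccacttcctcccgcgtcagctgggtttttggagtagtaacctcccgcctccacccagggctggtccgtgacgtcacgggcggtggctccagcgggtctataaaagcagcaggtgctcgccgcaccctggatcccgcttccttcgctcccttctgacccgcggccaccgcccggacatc
The motif occurs in 25.4% of all 32851 windows and in at least 1 window of 28.4% of the 27025 genes listed. Of the 25 leading ILC2 genes named further on, 20 had a window, and 5 of these (25%) held the motif, a share close to that of all genes.

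Depth differed between facilities. The median ILC2 held 959 unique molecular identifiers (UMIs, 1 per captured RNA molecule) at Aachen, 3935 at Bonn and 3324 at Hamburg, and the summed ILC2 of a library held 45518 to 218574 UMIs. Of 32886 genes, 4731 had no UMI in any Aachen cell but had UMIs at Bonn and Hamburg. Genes without a UMI in any cell of a facility included Il5 at Aachen and Bonn, Nmur1 at Aachen and Calca at Bonn. Whether these genes could be counted there is not known, so such a 0 was not read as absence from the cells. By the rules used, such genes could not be leading genes or lie above T and NK cells at every facility. At Hamburg Il5 was found in 10 of 168 ILC2 and in 0 T, NK or B cells. Macrophage RNA was frequent at Aachen: C1qa stood at 609 CPM (counts scaled to a common total of 1e6) in Aachen ILC2 and at 698 CPM in Aachen T cells, against 2.27 and 5.86 CPM in Bonn and Hamburg ILC2. Of the ILC2, 104 held at least 1 UMI of a CD3 or T cell receptor gene, which was 8.38% at Aachen, 32.5% at Bonn and 38.1% at Hamburg. A doublet caller marked 1 ILC2, but it marked only 0.154% of the Aachen and 0.244% of the Hamburg cells and so did not work there. Of 20042 barcodes 219 occurred in more than 1 library, and none was shared by a pair of ILC2.

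A set of 6 cells under the ILC2 name carried transcripts of basophils or mast cells (at least 2 UMIs of Mcpt8, Fcer1a, Ms4a2, Gata2 and Cd200r3 together). They came from the Hamburg cortex (3), the Hamburg OM (2) and the Bonn cortex (1), and none held a UMI of Gata3, Il7r or Areg. They held 100% of the 103 UMIs of Mcpt8, a basophil protease, and 100% of the 30 UMIs of Gata2, a factor of mast cells and basophils. Both genes were used to pick the cells, which favours these shares. Of the Mcpt8 UMIs 99 lay in 1 Hamburg cortex cell. Among genes not used for the choice, the 6 cells held 98.2% of the 112 UMIs of the chymase Cma1. They also held 85.9% of the 384 UMIs of the mast cell carboxypeptidase Cpa3 and 86.5% of the 357 UMIs of the cytotoxic protease Gzmb. Cma1 and Gzmb were higher in NK cells than in ILC2. The median log2 difference of ILC2 from NK cells over the 9 libraries was -5.08 for Cma1 and -5.88 for Gzmb. Of the ILC2 UMIs of Il13 and Il4 the 6 cells held 7.66% and 10.7%. The Bonn cell was picked by 7 UMIs of Gata2 alone and held 120 UMIs of Cpa3 and 20 of Cma1. Below, the 6 are called cells with basophil transcripts, a name that does not tell basophils from mast cells. These cells were singled out after their values were seen. Several values below rest on them and are also given without them.

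**Figure D1:**
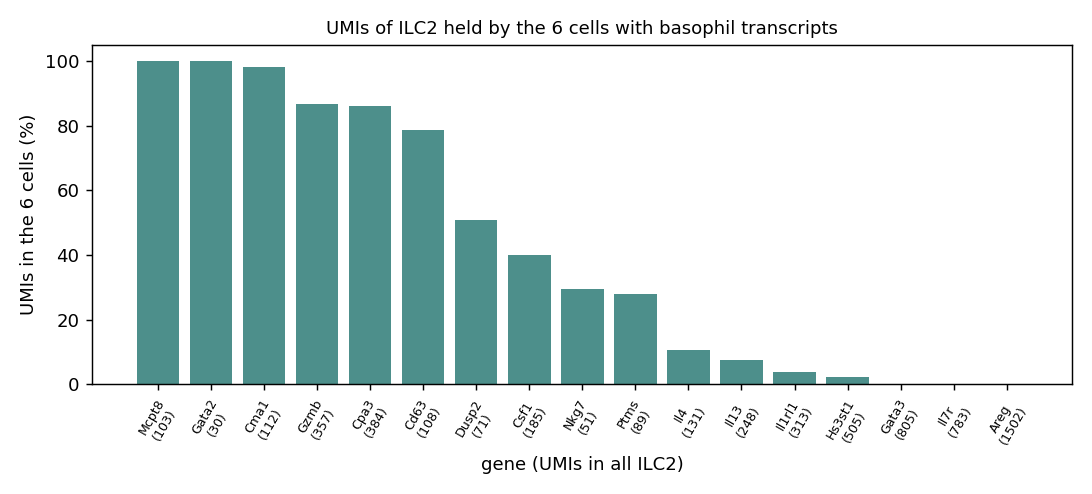
Share of all ILC2 UMIs of a gene (percent) that lay in the 6 cells with basophil transcripts, for 17 genes. Mcpt8, Gata2 and Cma1 lay almost wholly in these cells, whereas Gata3, Il7r and Areg lay at 0%. Mcpt8 and Gata2 were used to pick the cells.

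The name ILC2 was checked against its markers. In sums per facility Gata3 stood at 692, 491 and 677 CPM in ILC2 of Aachen, Bonn and Hamburg, at 118, 65.3 and 78.0 CPM in T cells and at 76.1, 57.1 and 58.0 CPM in NK cells, so ILC2 did not overlap with either. Areg stood at 698, 229.6 and 1860.0 CPM in ILC2 and at no more than 30.6 CPM in T or NK cells. Hs3st1, which encodes a heparan sulfate sulfotransferase, stood at 274, 141 and 567 CPM in ILC2 and at no more than 2.12 CPM in the others. Il7r, the receptor of the survival cytokine IL-7, overlapped with T cells, at 352, 798 and 536 CPM in ILC2 and 157, 374 and 291 CPM in T cells, yet within each of the 9 libraries it was higher in ILC2 than in T and NK cells. CPM were scaled by TMM. Since the clusters were built from these genes, all differences between cell types are a description with no test.

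Genes of the T and NK lineages were low. Over the 9 libraries 14 T cell genes summed to 251 to 758 CPM in ILC2, 5164 to 6149 CPM in T cells and 223 to 802 CPM in NK cells. The 14 NK and ILC1 genes summed to 8.76 to 1170.4 CPM in ILC2 and to 10788 to 19834 CPM in NK cells. Ncr1 stood at 11.2, 0 and 2.93 CPM in ILC2. The B cell list summed to 225 to 5664 CPM and the myeloid list to 8.76 to 3544 CPM, each with its highest sums at Aachen.

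Single cells were compared after thinning each to 500 UMIs, which left out 21 of 179 Aachen ILC2. Gata3 was then detected in 25.9, 36.4 and 32.7% of the ILC2 of Aachen, Bonn and Hamburg, against 4.97, 3.74 and 4.68% of T cells and 0.227, 0 and 0% of B cells, which should lack it. Unthinned, the ILC2 shares were 45.8, 87.0 and 81.0%. At least 1 of Gata3, Areg, Il7r and Hs3st1 was detected in 73.2, 98.7 and 96.4% of unthinned ILC2, against 20.01, 52.7 and 54.3% of T cells and 2.13, 3.65 and 14.4% of B cells. A CD3 gene (Cd3d, Cd3e or Cd3g) was found in 5.06, 1.30 and 5.36% of thinned ILC2, against 68.0, 81.2 and 73.2% of T cells and 2.72, 0.608 and 2.04% of B cells. Median depths of T cells were 973, 3274 and 3396 UMIs. Mki67, a gene of dividing cells, had 0 UMIs in 424 ILC2, and 0 counts allow a share of cells with a UMI of up to 1.68, 3.90 and 1.79% at the 3 facilities. Top2a, another such gene, had 6 UMIs in 5 ILC2. The cell cycle list summed to 229 to 531 CPM over the ILC2 libraries and to 376 to 719.8 CPM over those of T cells, and proliferating cells carry a cluster name of their own in the deposited table.

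By the smaller of the log2 differences from T and from NK cells, 25 genes led the ILC2 profile. They held alarmin and cytokine receptors, lipid mediator receptors, transcription factors, enzymes and transporters. Their lowest ILC2 facility lay above the highest T and NK facility for all 25, which the ranking favours.

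Among the receptors, Il1rl1 stood at 229, 216 and 255 CPM in ILC2 of Aachen, Bonn and Hamburg and at no more than 4.94 CPM in T or NK cells. Il17rb, a subunit of the IL-25 receptor, stood at 55.8, 72.7 and 114 CPM in ILC2 and at no more than 1.77 CPM in the others. Il2ra, the high-affinity chain of the IL-2 receptor, reached 89.3, 161 and 196 CPM in ILC2 and at most 21.6 CPM elsewhere. Receptors of leukotrienes were also among the leading genes. Ltb4r1 lay at 195, 243 and 217 CPM and Cysltr1 at 67.0, 216 and 119 CPM in ILC2, against at most 16.2 and 11.3 CPM. Ccr9, a chemokine receptor known from gut homing, stood at 67.0, 200.03 and 209.6 CPM in ILC2 and at no more than 20.5 CPM in the others.

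Enzymes and transporters formed a further group. Arg1, the arginase that breaks down arginine, stood at 83.8, 81.8 and 136 CPM in ILC2 and at no more than 6.64 CPM in T or NK cells. The amino acid transporter Slc7a8 lay at 184, 177 and 255 CPM in ILC2 and at no more than 3.10 CPM in the others. Slc6a13, a transporter of GABA and taurine, lay at 201, 116 and 90.9 CPM, and Lpcat2, an enzyme of phospholipid remodelling, at 101, 232 and 215 CPM. Transcription regulators beside Gata3 included Lmo4 (609, 207 and 652 CPM) and Hlf (61.4, 95.5 and 125 CPM). Other leading genes included Stab2, Rnf128, Lztfl1, Ptpn13, Pxdc1, Phlda1 and Nfkbiz.

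Cpa3 and Cd63 rested on the 6 cells with basophil transcripts. Cpa3 stood at 72.6, 300.1 and 349 CPM over all ILC2 and at 72.6, 28.1 and 44.5 CPM without these cells. Cd63, a granule membrane protein, went from 117, 77.3 and 77.7 CPM to 117, 0 and 3.07 CPM. The other 23 kept at least 50 CPM at each facility and lay above every T and NK facility without the 6 cells. Within libraries, 21 of the 25 were higher in ILC2 than in both T and NK cells in all 9, and 2 were so in 8.

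**Figure D2:**
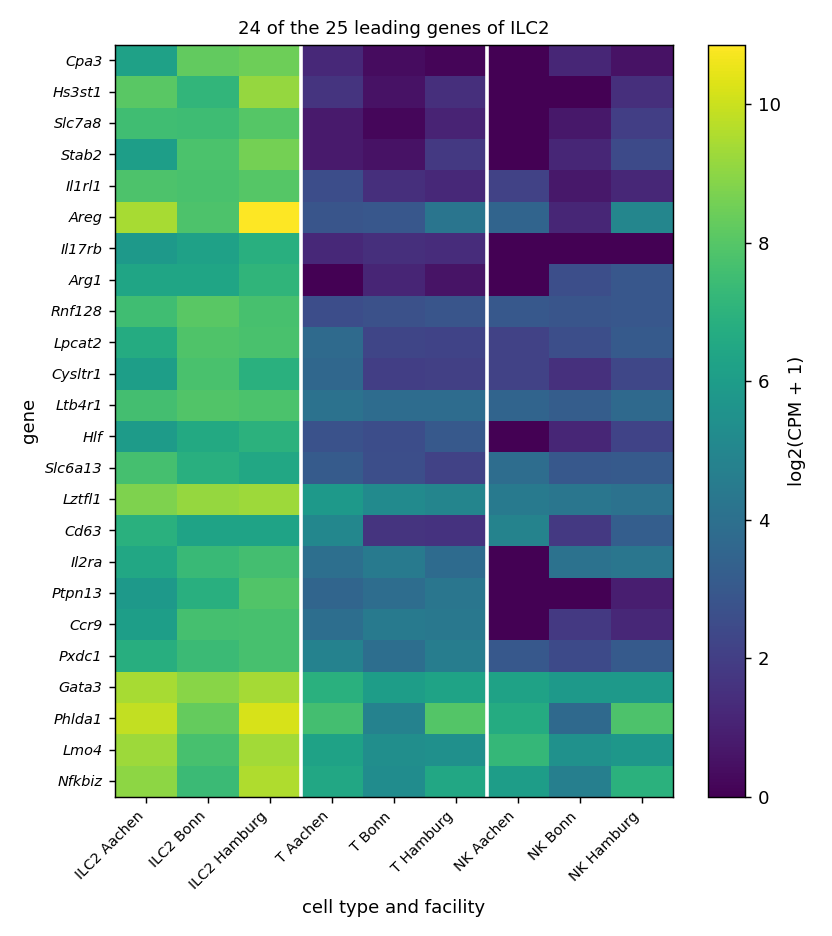
Levels of 24 of the 25 leading genes as log2(CPM + 1), scaled by TMM, in sums per facility of ILC2, T and NK cells (columns). Rows follow the smaller of the differences from T and NK cells, and the 3 ILC2 columns are the highest of each row.

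Over the 7618 genes with a mean of at least 10 CPM in these sums, every ILC2 facility lay above every T and NK facility for 259 genes (3.4%) and below for 616 (8.09%). Scaled by total UMIs in place of TMM, 297 of 7912 genes lay above and 353 below, which moved the share of higher genes among both from 29.6% to 45.7%. All counts per list use TMM. Of 15 ILC2-defining genes 13 were measured at this level, and 9 lay above: Gata3, Areg, Hs3st1, Rora, Il1rl1, Il13, Icos, Il17rb and Arg1. Klrg1, an inhibitory receptor, overlapped with NK cells, at 89.3, 77.3 and 79.1 CPM in ILC2 and 107, 98.5 and 51.4 CPM in NK cells. Ptgdr2, a prostaglandin D2 receptor often used to define ILC2, had 1 UMI in all 424 cells.

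Of 22 transcription factors measured, 6 lay above T and NK cells: Gata3, Rora, Gfi1, Pparg, Lmo4 and Nfkb1. Among all genes 3.4% lay above and 8.09% below. Rora, a nuclear receptor required for ILC2 development, stood at 313, 211 and 424 CPM in ILC2 and at no more than 129 CPM in the others. Pparg, a lipid-sensing nuclear receptor, stood at 11.2, 68.2 and 86.5 CPM against at most 3.53 CPM. Runx3, a factor of cytotoxic lymphocytes, was the 1 that lay below, at 61.4, 123 and 99.7 CPM in ILC2 and 145 to 260.3 CPM in T and NK cells.

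Alarmin and cytokine receptors went both ways. Of 17 measured, 5 lay above (Il1rl1, Il17rb, Il2ra, Il9r and Tnfrsf25) and 6 below (Il18r1, Il18rap, Crlf2, Il2rb, Il4ra and Ifngr1). The shares of all genes were 3.4% and 8.09%. Il2rb, the β chain shared by the IL-2 and IL-15 receptors, stood at 11.2, 6.82 and 7.33 CPM in ILC2 and at 168 to 943 CPM in T and NK cells. Crlf2, a subunit of the receptor for the alarmin TSLP, stood at 33.5, 31.8 and 49.8 CPM in ILC2 and at 63.0 to 86.5 CPM in the others.

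Beside 3.4% of all genes above and 8.09% below, 1 of 24 residency and migration genes lay above (Ccr9) and 8 below. The recirculation receptor S1pr1 was among the latter, at 11.2, 0 and 8.79 CPM in ILC2 and 17.3 to 146 CPM in T and NK cells. The chemokine receptor Cxcr3 had 2 UMIs in all ILC2. Of 11 lipid and neuropeptide receptors 3 lay above (Ptgir, Cysltr1 and Ltb4r1). Nmur1, the receptor of neuromedin U, stood at 84.1 and 80.6 CPM in Bonn and Hamburg ILC2, against at most 0.493 CPM in T or NK cells. Of 14 NK and ILC1 genes 11 lay below, and of 13 T cell genes 2, Cd247 and Cd6.

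Over all genes, 3.4% lay above T and NK cells and 8.09% below. Secreted effectors included 6 of 24 genes above (Il13, Csf1, Csf2, Areg, Bmp2 and Bmp7) and 1 below, Ccl5. Their levels varied widely between facilities. Il13 stood at 22.3, 11.4 and 350.3 CPM in ILC2 of Aachen, Bonn and Hamburg, on 4, 5 and 239 UMIs. Csf2 stood at 39.1, 214 and 802 CPM and Csf1, a growth factor of macrophages, at 33.5, 68.2 and 217 CPM. All 3 were highest at Hamburg, also without the 6 cells with basophil transcripts, where Csf1 fell from 64, 62 and 22 UMIs in cortex, OM and IM of Hamburg to 24, 30 and 22, or to 117 CPM. Thinned to 500 UMIs, 13.1% of Hamburg ILC2 held an Il13 UMI (exact Clopper-Pearson 95% interval 8.39 to 19.2%), against 1.27% at Aachen (0.154 to 4.50%) and 0% at Bonn (0 to 4.68%). Intervals cover counting error only. Il5 had 14 UMIs in 10 Hamburg cells. Il4 overlapped, at 78.2, 75.0 and 122 CPM in ILC2 and 23.3, 32.2 and 85.7 CPM in T cells. Calca, the gene of the neuropeptide CGRP, stood at 184 and 173 CPM in Aachen and Hamburg ILC2 and at no more than 6.92 CPM in T or NK cells. The part of facility, chemistry and depth in these differences was not tested.

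The share of ILC2 among all immune cells was compared between compartments. For cortex, OM and IM it was 2.58, 2.58 and 2.31% at Aachen, 1.15, 1.93 and 1.23% at Bonn and 2.37, 2.36 and 2.53% at Hamburg, so the compartments overlapped. Means were 2.03 ± 0.774% (cortex), 2.29 ± 0.331% (OM) and 2.02 ± 0.697% (IM; SD, n = 3). The medulla, taken as the mean of OM and IM, exceeded the cortex by 0.126 ± 0.286 percentage points, higher in 2 of 3 facilities (exact permutation test within facilities, two-sided, p = 0.667). The 27 arrangements allow a smallest p of 0.037.

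Among T, NK and ILC2 cells alone, ILC2 took a larger share of the OM than of the cortex at each facility. OM shares were 15.0, 8.05 and 8.50% at Aachen, Bonn and Hamburg, cortex shares 6.84, 2.78 and 4.71% and IM shares 5.53, 6.48 and 6.20%. The lowest OM share lay above the highest cortex share. OM exceeded cortex by 5.74 ± 2.22 points (SD, n = 3; exact permutation test, two-sided, p = 0.25, the smallest that 3 facilities allow). For the medulla as a whole the difference was 3.52 ± 0.926 points (exact permutation p = 0.185). T cells, part of the denominator, made up 34.6 ± 5.45% of immune cells in cortex, 16.5 ± 3.90% in OM and 26.3 ± 9.39% in IM libraries. Such shares give no absolute numbers of ILC2.

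**Figure D3:**
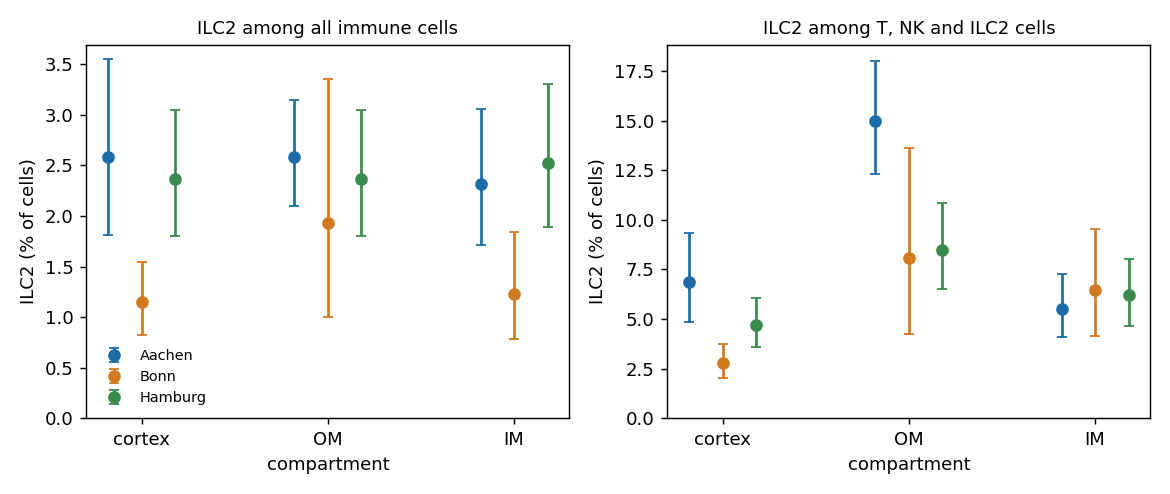
ILC2 share (percent, from 0) of all immune cells and of T, NK and ILC2 cells by compartment and facility. Points are libraries and bars exact 95% binomial intervals. Among T, NK and ILC2 cells the OM points lie at 8.05 to 15.0%, above the cortex points.

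Gene levels in ILC2 were compared between compartments over sums per library with edgeR's quasi-likelihood test and facility as a block, on 1381 genes. In medulla against cortex 1 gene passed an adjusted p of 0.05 (0.0724%), and 88 had an unadjusted p under 0.05 (6.37%). One gene also passed in OM against cortex (0.0724%, 6.3% unadjusted) and one in IM against cortex (0.0724%, 6.08% unadjusted). In OM against IM 0 passed (0%), with 62 at an unadjusted p under 0.05 (4.49%) and 0 by DESeq2. On simulated counts for medulla against cortex, with 200 of the 1381 genes changed, edgeR called 66.7% of the 90 genes changed 2-fold and 100% of the 78 changed 4-fold that passed the filter, and DESeq2 42.2% and 96.2%. The simulated counts had the spread of a trend over all genes and left out spread particular to single genes. In the real fit Gzmb, with a log2 fold change of -4.52, did not pass. These shares therefore do not exclude changes of such size among genes without a call.

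The gene higher in the medulla was Gm42418, a long non-coding RNA (chr17:39846958-39848788, GRCm38) that overlaps ribosomal RNA sequence. For cortex, OM and IM its ILC2 levels were 10028, 24488 and 14079 CPM at Bonn and 20409.6, 48099.7 and 33875 CPM at Hamburg, while Aachen held 4, 11 and 5 UMIs. The order from cortex over IM to OM held at all 3 facilities. The log2 fold change (± SE) was 1.05 ± 0.10 in medulla against cortex (adjusted p = 0.000646) and 1.42 ± 0.11 in OM against cortex (adjusted p = 9.0e-05), higher in 3 of 3 facilities. In IM against cortex it was 0.68 ± 0.11 (adjusted p = 0.0569) and in OM against IM 0.74 ± 0.11 (adjusted p = 0.0509). The medulla call was lost without the facility block (adjusted p = 0.999) and without Hamburg (adjusted p = 0.178). It was also lost without called doublets and cells holding more than a single B cell or myeloid UMI (0.748). That step took Bonn OM from 12 to 6 ILC2, under the minimum of 10, so this library was left out. The adjusted p ranged from 5.1e-09 to 0.999 in 13 alternatives. The log2 fold change in these alternatives was 0.79 to 1.12. T and NK cells had log2 fold changes of 0.30 and 0.15, and the difference of ILC2 from them did not pass (edgeR, adjusted p = 0.225 and 0.0505). T cells had the same order from cortex over IM to OM at Bonn (13270, 15220 and 21054 CPM) and Hamburg (33793, 35724 and 38377 CPM). At Aachen they did not. B cells and resident macrophages had this order at Bonn but not at Hamburg, and NK cells at neither.

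The gene past the threshold in the IM was Nr4a3, an orphan nuclear receptor of the immediate early class (chr4:48045078-48086447). Hamburg ILC2 held 54, 94 and 169 UMIs for cortex, OM and IM, or 211, 428 and 909 CPM. Aachen held 1, 2 and 3 UMIs and Bonn 2, 1 and 1, so the difference rests on Hamburg. There, 23, 29 and 34 cells held a UMI. The log2 fold change was 2.03 ± 0.29 in IM against cortex (adjusted p = 0.0283, higher in 3 of 3 facilities) and 1.51 ± 0.27 in medulla against cortex (adjusted p = 0.0621). The IM call was lost with DESeq2 (adjusted p = 0.847), without the facility block (0.9999), without Bonn (0.06) and after thinning to 500 UMIs (0.976). It was also lost without doublets and cells with B cell or myeloid UMIs (0.4), a fit that lacked Bonn OM as well. Over 12 alternatives the adjusted p ranged from 9.4e-05 to 0.9999. Without Hamburg the gene was under the count filter. Other cells of Hamburg were also higher in IM than in cortex. For cortex and IM, Nr4a3 stood at 222 and 298 CPM in T cells and 291 and 341 CPM in NK cells. In B cells it stood at 65.6 and 90.6 CPM and in resident macrophages at 40.4 and 86.8 CPM. In the OM, T and NK cells lay below their cortex, at 178 and 234 CPM.

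The other immediate early genes tested, 15 of a list of 20, did not pass in IM against cortex. The median log2 fold change of the list with Nr4a3 was 0.36 in IM against cortex, beside -0.01 over all genes. Nr4a1, the paralog of Nr4a3, stood at 1812, 1987 and 2371 CPM for cortex, OM and IM of Hamburg. Over all facilities its log2 fold change was 1.16 ± 0.52 in IM against cortex (edgeR, adjusted p = 0.8). Cells with a UMI of it numbered 11, 23 and 18 at Aachen, 2, 1 and 6 at Bonn and 51, 41 and 45 at Hamburg. Gadd45b, a stress-induced gene, was higher in IM than in cortex at 3 of 3 facilities (1.05 ± 0.25, adjusted p = 0.349). Such genes are known to respond to enzymatic digestion of tissue, and the part of that step was not tested.

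Secreted effectors gave no call in any contrast (11 of 35 tested). Csf2 came nearest. For cortex, OM and IM it stood at 57.4, 0 and 49.0 CPM at Aachen (4, 0 and 3 UMIs), 147, 66.1 and 464 CPM at Bonn (36, 5 and 53 UMIs) and 865, 415 and 1264 CPM at Hamburg (221, 91 and 235 UMIs). The OM was lowest at each facility. In OM against IM the log2 fold change was -1.98 ± 0.35 (edgeR, adjusted p = 0.085, range 2.4e-06 to 0.99997 over 13 alternatives), and it passed only without a filter on low counts.

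Il13 was also lowest in the OM at Hamburg, with 103, 24 and 112 UMIs for cortex, OM and IM (403, 109 and 602 CPM). Without the 6 cells with basophil transcripts the cortex count was 84. Aachen and Bonn held 4, 0 and 0 and 5, 0 and 0 UMIs. The log2 fold change was -2.40 ± 0.50 in OM against IM (edgeR, adjusted p = 0.227) and -2.07 ± 0.50 in OM against cortex (adjusted p = 0.381), and each passed only without a filter on low counts (adjusted p = 0.000121 and 0.00103).

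Areg had no common direction. For cortex, OM and IM it stood at 731, 554 and 473 CPM at Aachen, 106, 569 and 280.2 CPM at Bonn and 1589, 1796 and 2522 CPM at Hamburg, and its log2 fold change of 0.59 ± 0.39 in medulla against cortex did not pass (edgeR, adjusted p = 0.962). Arg1 was higher in OM than in cortex at 3 of 3 facilities, with 43.0, 86.2 and 81.6 CPM for cortex, OM and IM at Aachen, 69.6, 106 and 96.3 CPM at Bonn and 121, 187 and 113 CPM at Hamburg, but did not pass (0.76 ± 0.28, adjusted p = 0.751). Il4 had a log2 fold change of -0.30 ± 0.30 in medulla against cortex (adjusted p = 0.969), and Il5 was under the count filter.

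**Figure D4:**
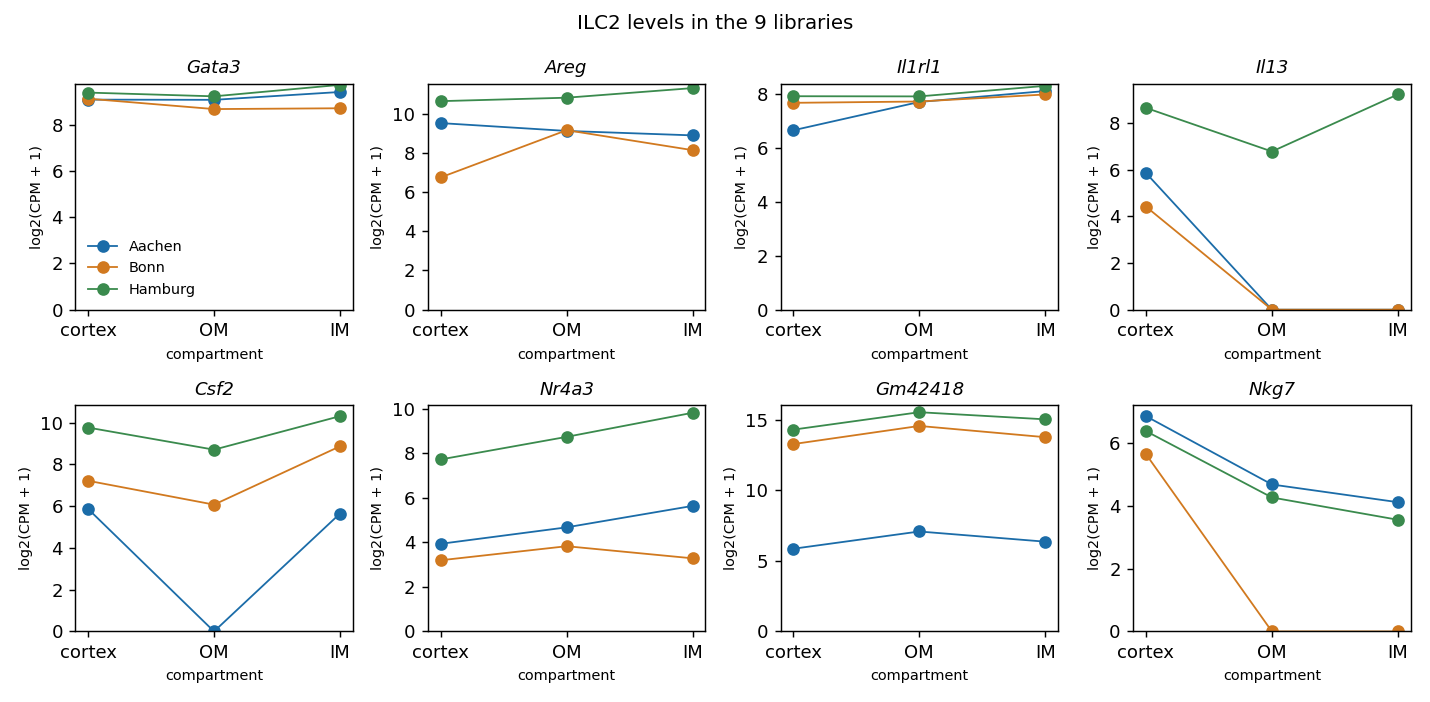
ILC2 levels of 8 genes as log2(CPM + 1), scaled by TMM, by compartment with 1 line per facility and 1 point per library. Gm42418 is highest and Csf2 lowest in the OM at each facility, and Nkg7 is highest in the cortex.

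Identity genes did not pass in any contrast. For cortex, OM and IM Gata3 stood at 545, 542 and 686 CPM at Aachen, 560.5, 410.1 and 420.3 CPM at Bonn and 673, 602 and 849.6 CPM at Hamburg, with a log2 fold change of 0.01 ± 0.18 in medulla against cortex whose sign changed between alternatives. Il7r and Hs3st1 had log2 fold changes of 0.15 ± 0.16 and 0.08 ± 0.24. Il1rl1 was higher in IM than in cortex at 3 of 3 facilities, at 100.4, 209 and 277 CPM for cortex, OM and IM of Aachen, 205, 212 and 254 CPM at Bonn and 243, 242 and 317 CPM at Hamburg. Its log2 fold change of 0.59 ± 0.23 did not pass (edgeR, adjusted p = 0.738). Rora was lower in OM than in IM at 3 of 3 facilities (-0.85 ± 0.21, adjusted p = 0.468). Of 15 ILC2-defining genes 11 were tested and 0 passed, with a median log2 fold change of 0.08 in medulla against cortex beside 0.00 over all genes.

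Among the genes with the smallest p in medulla against cortex, Capg, an actin-capping protein, was higher in OM than in cortex in every pairing of libraries. For cortex, OM and IM it stood at 43.0, 135 and 65.3 CPM at Aachen, 85.9, 185 and 149 CPM at Bonn and 58.7, 155 and 139.8 CPM at Hamburg. Its log2 fold change was 1.44 ± 0.28 in OM against cortex (edgeR, adjusted p = 0.129). In medulla against cortex it was 1.24 ± 0.25 (adjusted p = 0.137), and neither passed. In the same medulla contrast Ptpn13, a phosphatase and 1 of the 25 leading genes, had 0.88 ± 0.22 (adjusted p = 0.342). Uqcrq, a subunit of respiratory complex III, had -0.90 ± 0.23 (adjusted p = 0.342). Both had the same direction in 3 of 3 facilities. Gzmb had -4.52 ± 0.79 (edgeR, adjusted p = 0.0621), Cpa3 -2.65 ± 0.58 (0.205) and Fcer1g, a receptor chain of mast cells, basophils, myeloid and NK cells, -1.48 ± 0.39 (0.387). All 3 rested in part on the 6 cells with basophil transcripts. Without these cells the UMIs in cortex of Aachen, Bonn and Hamburg went from 13, 83 and 239 to 13, 0 and 18 for Gzmb and from 0, 123 and 204 to 0, 3 and 8 for Cpa3, and both genes were then under the count filter. Fcer1g, 96 of whose 221 UMIs lay in them, then had a log2 fold change of -0.39 (edgeR, adjusted p = 0.93). In NK cells Fcer1g stood at 1622 to 3518 CPM, and the part of their RNA was not tested. With the 6 cells, the basophil and mast cell list summed to 57.4 to 1683 CPM in cortex, 0 to 474 CPM in OM and 43.0 to 179.6 CPM in IM libraries, and without them to 17.2 to 57.4, 0 to 86.2 and 43.0 to 179.6 CPM.

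In OM against cortex the macrophage genes Apoe (2.16 ± 0.55, adjusted p = 0.393) and Lyz2 (1.71 ± 0.41, 0.393) and the histone gene Hist1h2bc (2.15 ± 0.41, 0.129) were among the 10 genes of smallest p. Apoe stood at 258, 1969 and 816 CPM for cortex, OM and IM of Aachen, but at 8.18, 0 and 0 CPM at Bonn and 23.5, 13.7 and 5.38 CPM at Hamburg. It was higher in OM at Aachen alone. Without the 6 cells with basophil transcripts Apoe (edgeR, adjusted p = 0.00505) and Hist1h2bc (0.049) passed. The myeloid list summed to 159.6 to 2036 CPM in cortex and 13.2 to 3544 CPM in OM libraries, and its part in the Apoe difference was not tested.

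**Figure D5:**
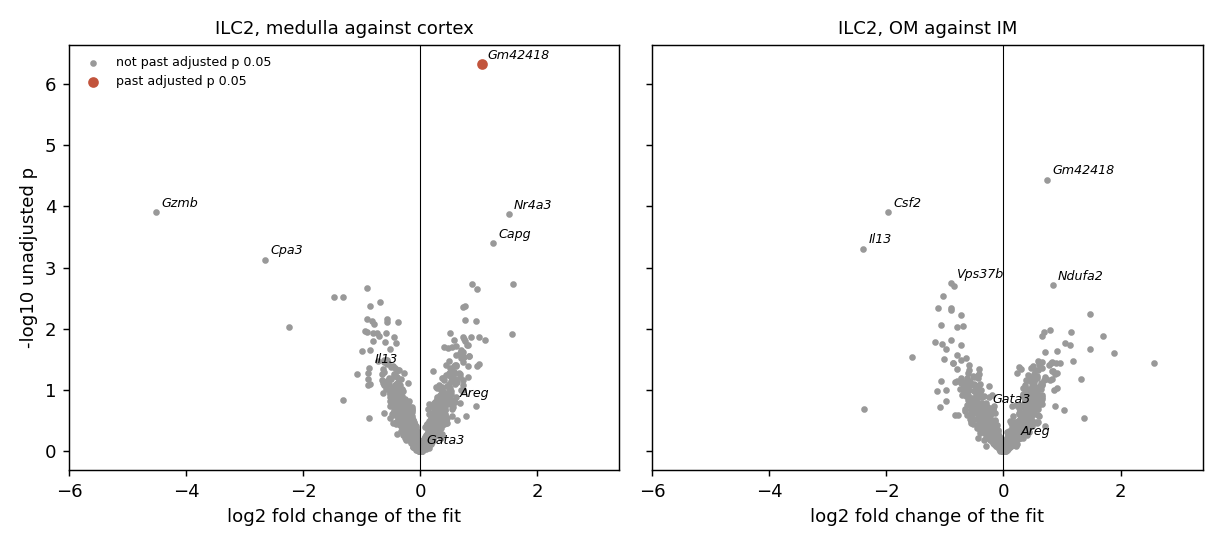
Log2 fold change (horizontal) against -log10 of the unadjusted p (vertical) from edgeR for 1381 genes in ILC2, for medulla against cortex and OM against IM. Gm42418 is the 1 gene past an adjusted p of 0.05 in these panels, in medulla against cortex. Csf2 lies at -1.98 and Il13 at -2.40 in OM against IM without passing.

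Environmental response lists gave 0 calls. The inner medulla is known for low oxygen and high osmolality. Hypoxia and glycolysis genes (8 of 20 tested) had a median log2 fold change of 0.03 in IM against cortex, with a range of -0.61 to 0.65. Osmotic response genes (4 of 11 tested) had a median of -0.14, with a range of -0.20 to 0.52. Both stand beside -0.01 over all genes. Heat shock genes (11 of 12 tested) had a median of 0.21 and residency and migration genes (15 of 29 tested) one of 0.07 in medulla against cortex, beside 0.00.

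Whether the medulla effect differed between ILC2 and other lymphocytes was tested as an interaction. Against T cells 5 of 6070 genes passed (0.0824%, with 5.72% at an unadjusted p under 0.05), namely Gzmb, Nkg7, Ptms, Dusp2 and Cma1, all lower in the medulla of ILC2 relative to T cells. Against NK cells the same genes and Areg passed, 6 of 3242 (0.185%, with 5.37% unadjusted). Nkg7, a granule protein of cytotoxic cells, stood at 115, 24.6 and 16.3 CPM for cortex, OM and IM in ILC2 of Aachen, 49.1, 0 and 0 CPM at Bonn and 82.2, 18.2 and 10.8 CPM at Hamburg. Every cortex library lay above every medulla library, on 51 UMIs in 20 cells. The difference in log2 fold change was -2.71 ± 0.42 from T cells (edgeR, adjusted p = 0.00207) and -2.99 ± 0.44 from NK cells (adjusted p = 0.00248). Without the 6 cells, which held 15 of these UMIs, Nkg7 alone passed in each test (adjusted p = 0.0343 and 0.0198). NK cells held 1795 to 4495 CPM of Nkg7, and the NK and ILC1 list summed to 405 to 1170.4 CPM in cortex, 13.2 to 123 CPM in OM and 8.76 to 277 CPM in IM libraries of ILC2. Without the 6 cells, which held 309 of 357 UMIs of its member Gzmb, the list summed to 43.0 to 430.2 CPM in cortex, 13.2 to 123 CPM in OM and 8.76 to 277 CPM in IM libraries. The part of NK cell RNA was not tested.

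The other differences rested on few cells or UMIs. Of the 357 Gzmb UMIs 305 lay in 3 cells, as did 103 of 112 for Cma1 and 44 of 71 for Dusp2, a phosphatase of activated lymphocytes. Ptms had 89 UMIs in 56 cells, with 86.0 to 123 CPM in cortex and 16.3 to 52.9 CPM in medulla libraries, and its differences did not pass without the 6 cells (edgeR, adjusted p = 0.246 from T and 0.132 from NK cells). The Areg difference from NK cells, 3.90 ± 0.77 (adjusted p = 0.024), came with a log2 fold change of -3.30 in NK cells, whose Areg levels were 0 to 68.6 CPM, and of 0.59 in ILC2. Without the 6 cells it did not pass (adjusted p = 0.0751).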

How the data were processed

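Male mouse kidney leukocytes of 3 compartments were sequenced at 3 facilities. Per the labels and the methods of the study, the authors used Cell Ranger and Seurat on mm10 and dropped cells under 200 or over 4000 genes or above 20% mitochondrial reads. The deposited values are expected counts of UMIs per gene and cell, made by the authors and not scaled to depth. They are whole at Aachen and Bonn, while at Hamburg 85.2% lie within 0.1 of a whole number, for a reason not given in the sources used here. Cluster names, compartment and facility were taken from the same table; GEO lists 1 sample per compartment.

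Counts were summed per cell type and library and rounded. Genes were filtered with filterByExpr, scaled by TMM and tested with edgeR 4.0.16 (R 4.3.3; quasi-likelihood, facility as block, Benjamini-Hochberg adjustment), with DESeq2 1.42.0 as an alternative. Differences from T and NK cells were tested as interactions. Shares were compared by exact permutation within facilities (scipy 1.17.1). Doublets were called with Scrublet in scanpy 1.11.5. Scripts were tested on simulated data. Other alternatives were size factors, no filter, no block, leaving out each facility, cell number, thinning, and leaving out doubtful cells. Leading genes had at least 50 CPM at each facility and were ranked by the smaller difference from T and NK cells. In each contrast the 10 genes of smallest p and the always named Gata3, Areg, Il7r, Hs3st1, Il13, Il4, Il1rl1 and Il5 were eligible for naming; Arg1 and Nr4a1 were named after their values were seen. A few genes that these rules name are not reported here. Members and lists were chosen with earlier results of these data known.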

Additional observations from a re-analysis of the deposited data

Results flagged for a closer look

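The medulla effect differed between ILC2 and other lymphocytes by an interaction term of edgeR's quasi-likelihood test, which is what brought these genes here. Relative to T cells, the difference in log2 fold change was -4.70 for Gzmb, -2.71 for Nkg7, -2.35 for Ptms, -2.62 for Dusp2 and -8.59 for Cma1. Relative to NK cells it was -2.99 for Nkg7, -6.17 for Cma1, -2.25 for Ptms, -4.61 for Gzmb, -2.66 for Dusp2 and 3.90 for Areg. Without the 6 cells with basophil transcripts, left out after the data were seen, Nkg7 alone passed, at -2.47 from T cells (adjusted p = 0.0343) and -2.74 from NK cells (adjusted p = 0.0198). The ILC2 comparisons with T and with NK cells share the ILC2 libraries.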

How the results depend on the processing

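The facilities pair the libraries (centred correlations 0.739 to 0.886 within a facility). With no replicate block the count of called genes was 0 in medulla, OM and IM against cortex, where the fits with facility as a block called 1 each, and 0 and 1 for the differences from T and NK cells, where the block gave 5 and 6. With no filter on low counts the counts were 32 (medulla), 22 (OM), 36 (IM), 17 (OM against IM), 31 (T) and 19 (NK). Leaving out 1 facility gave 0 to 8 genes for medulla, up to 2 for OM and 0 to 10 for IM against cortex, up to 3 for OM against IM, 0 to 31 against T cells and 0 to 15 against NK cells. Without Hamburg 0 genes were called in medulla and IM against cortex and in both differences, and without Bonn 0 in IM against cortex. The highest counts came without Aachen in the ILC2 contrasts (8, 2, 10 and 3) and without Bonn in the differences from T and NK cells (31 and 15). Libraries of at least 20 ILC2 gave 7 (medulla) and 4 (IM). Without doublets and cells holding more than a single B cell or myeloid UMI 0 genes were called against cortex in each contrast. Without cells holding T cell receptor UMIs the counts were 4 (medulla) and 7 (IM). In these 2 alternatives Bonn OM fell to 6 and 7 ILC2, under the minimum of 10, and was left out. Without the cells with basophil transcripts, an alternative chosen after seeing the data, the counts were 2 (medulla), 3 (OM), 1 (OM against IM), 1 (T) and 1 (NK). DESeq2 called 0 genes in IM against cortex and 8 against T cells, relative log expression factors 3 against T cells, and thinning 0 in IM against cortex. Causes were not tested.

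Of 46 single-gene results under 546 alternatives in all, 492 kept direction and side of the threshold, 10 lost and 32 gained the call, and 12 changed sign, none of them called. Gata3 in medulla against cortex was -0.0495 with no filter, -0.0699 without Aachen, -0.0234 without Hamburg, -0.0283 in libraries of at least 20 cells, -0.0634 thinned, -0.179 without B cell or myeloid UMIs and -0.0596 without basophil transcripts. Il7r was -0.309 thinned and -0.139 without B cell or myeloid UMIs, and Hs3st1 -0.0629 without Aachen and -0.189 without Hamburg. Gzmb in IM against cortex was 1.03 without B cell or myeloid UMIs. The share difference between medulla and cortex was -0.0276 points without Bonn (exact permutation p = 0.778). Depth limits low genes: Bonn OM rests on 12 ILC2, and Il13 and Nr4a3 on Hamburg.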

Other observations

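Among the 163 Hamburg ILC2 left without the cells with basophil transcripts, 44 held a UMI of Il13. Areg was detected in 84.1% of these and in 73.1% of the others. For Il5, the other type 2 cytokine, the shares were 15.9% (7 of 44 cells) and 2.52% (3 of 119). For Il4 they were 31.8% and 18.5%, and for Nr4a3 65.9% and 46.2%. Csf2 was detected in 40.9% and 41.2%, and Arg1 in 25% and 36.1%. The 10 cells with Il5 were deeper, at a median of 4245 UMIs against 3303 in the rest. Median depths with and without an Il13 UMI were 3606 and 3257 UMIs. Cells of 1 facility are not replicates, and these shares carry no test.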
